A study of Mus musculus with 12 samples.

Results

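The 39 genes described here belong to the interferon response and to antigen presentation by class I of the major histocompatibility complex (MHC). They were chosen by symbol, and all 39 had a row among the 24421 entries of the deposited table. RNA was sequenced from mouse spinal cord cells sorted by green fluorescent protein (GFP), which the labels call astrocytes, to ask how the homeobox gene Nkx6-1 acts in these cells in each sex. The groups were male conditional knockout (cKO) of Nkx6-1, male control, female cKO and female control, each with 3 labelled libraries, and all carried the genotype label Aldh1l1-GFP, a reporter under an astrocyte gene. The Cre driver, the deleted part of Nkx6-1, the age of the mice and whether replicates were separate mice are not given in the sources used here, so p-values describe the spread among these libraries, which could be technical. Values are the deposited normalized counts, which are gene counts divided by 1 factor per library.

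Depth was 2246412 to 9054934 reads in genes, and 20.9% to 40.6% of these came from the ribosomal precursor Rn45s. Nkx6-1 itself had 0, 0 and 18 reads in male cKO libraries against 3, 9 and 2 in male controls, and 0, 0 and 19 reads in female cKO libraries against 19, 7 and 12 in female controls. The library labelled cKO replicate 3 of each sex was therefore not seen to lose this transcript. Against its sex label, male cKO replicate 2 had 3546 reads of Xist and 0 of 4 Y-linked genes. Its reads differed from those of female cKO replicate 2 by about the sampling noise (chi-square per degree of freedom 1.06, against 15.2 to 145 for the other 65 pairs of libraries). The pair was counted as 1 female library and male cKO replicate 2 was left out, so male cKO values below are those of replicates 1 and 3, with n = 2. All 12 astrocyte markers had reads in all 12 libraries. So did all 10 oligodendrocyte and all 6 fibroblast markers, so this does not set astrocytes apart. Genes of other cells were abundant too: summed oligodendrocyte markers ran from 123923 to 455052 normalized counts over the 11 libraries, against 15360 to 91559 for astrocyte markers.

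Interferons are secreted proteins that bind receptors on the cell surface and, through JAK kinases, activate transcription factors of the STAT family. Type I interferon assembles a complex that holds STAT2 and IRF9 on interferon-stimulated response elements (ISREs), while type II interferon acts through gamma-activated sites (GAS). The induced genes block viral replication, attack vacuoles that hold pathogens, and load peptides onto MHC class I molecules for inspection by CD8+ T cells. Astrocytes carry interferon receptors and are known to respond in this way during infection and inflammation of the central nervous system.

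The promoters of the members were searched for the letters of these elements, which some carried and others did not. RefSeq windows of 250 bases before to 50 bases after the gene start (GRCm38.p6) were held for 32 of the 39 members, 38 windows in all. The ISRE core was taken as GAAA, any 2 bases and GAAA, or TTTC, any 2 bases and TTTC on the other strand. It was in 19 of the 38 member windows, which belonged to 18 members, against 3.44% of 32851 windows of all genes. The GAS core TTCNNNGAA, which reads the same on both strands, was in 8 member windows (21.1%), against 8.3% of all windows. Both were in 4 member windows, and in 1 of these they overlapped. Nlrc5, Mx1, Mx2, Ifi27, Usp18, Iigp1 and Tap2 had no window. These matches are a description of letters only, and no binding was measured. Only these exact letters were searched, so a window without a match can still hold a variant of either element. The H2-K1 window below, for example, holds tttcacttct, which the ISRE letters resemble but do not match. The 250 bases before the start of 7 members whose values are followed below are printed with the ISRE or GAS letters in capitals. They show the range from repeated cores to no exact match.
Ifit1, 2 ISRE cores, chr19:34640639-34640888, plus strand: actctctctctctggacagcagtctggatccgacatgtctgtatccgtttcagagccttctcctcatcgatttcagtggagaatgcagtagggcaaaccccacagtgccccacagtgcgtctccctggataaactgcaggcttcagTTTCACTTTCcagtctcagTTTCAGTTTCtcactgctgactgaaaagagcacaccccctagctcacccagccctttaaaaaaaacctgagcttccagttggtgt
Isg15, ISRE cores that overlap one another, chr4:156200819-156201068, minus strand: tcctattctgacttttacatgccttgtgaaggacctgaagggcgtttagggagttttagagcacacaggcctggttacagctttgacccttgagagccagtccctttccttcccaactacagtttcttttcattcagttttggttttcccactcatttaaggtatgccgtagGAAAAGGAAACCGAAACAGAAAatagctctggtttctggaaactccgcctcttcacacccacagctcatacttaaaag
Rsad2, 1 ISRE core, chr12:26456453-26456702, minus strand: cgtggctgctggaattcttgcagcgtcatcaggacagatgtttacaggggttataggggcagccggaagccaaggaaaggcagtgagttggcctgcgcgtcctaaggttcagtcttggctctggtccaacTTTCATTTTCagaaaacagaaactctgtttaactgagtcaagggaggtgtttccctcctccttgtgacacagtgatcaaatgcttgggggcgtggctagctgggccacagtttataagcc
Irgm1, overlapping ISRE cores close to the start, chr11:48871421-48871670, minus strand: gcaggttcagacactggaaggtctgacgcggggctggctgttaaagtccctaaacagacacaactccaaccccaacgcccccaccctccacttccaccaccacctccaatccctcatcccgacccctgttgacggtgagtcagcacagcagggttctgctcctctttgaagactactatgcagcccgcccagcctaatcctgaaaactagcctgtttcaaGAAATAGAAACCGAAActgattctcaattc
Cxcl10, 1 ISRE core far from the start, chr5:92348890-92349139, minus strand: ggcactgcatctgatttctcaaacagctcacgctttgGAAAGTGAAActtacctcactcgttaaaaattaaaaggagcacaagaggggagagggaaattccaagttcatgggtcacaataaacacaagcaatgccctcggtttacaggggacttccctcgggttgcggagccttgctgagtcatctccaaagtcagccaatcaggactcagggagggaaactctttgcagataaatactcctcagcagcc
Irf1, 1 GAS core and no ISRE core, chr11:53769764-53770013, plus strand: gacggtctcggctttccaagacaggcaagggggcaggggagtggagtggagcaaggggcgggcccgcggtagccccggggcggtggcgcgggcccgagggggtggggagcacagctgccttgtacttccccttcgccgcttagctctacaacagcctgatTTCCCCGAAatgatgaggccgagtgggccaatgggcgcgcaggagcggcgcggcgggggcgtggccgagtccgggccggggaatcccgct
H2-K1, neither core in this window, chr17:34000348-34000597, minus strand: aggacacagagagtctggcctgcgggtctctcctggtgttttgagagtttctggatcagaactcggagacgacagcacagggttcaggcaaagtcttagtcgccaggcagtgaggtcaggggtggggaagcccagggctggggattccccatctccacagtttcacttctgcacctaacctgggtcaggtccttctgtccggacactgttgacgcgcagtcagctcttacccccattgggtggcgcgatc

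Levels of the members spanned a wide range. Per kilobase of annotated exon, the mean over 11 libraries was highest for B2m, the light chain shared by MHC class I molecules, at 1964 normalized counts per kilobase. The heavy chain genes H2-K1 and H2-D1 came next at 91.3 and 70.2 per kilobase, followed by the interferon-induced gene Ifi27 at 69.6 and the antiviral gene Ifit3 at 42.9. The lowest were Psmb9 at 1.60, Nlrc5 at 1.05 and Mx1 at 0.30 per kilobase. Mx1, an antiviral dynamin-like GTPase, had reads in 3 of the 11 libraries, with values of 1.42 in male cKO replicate 3, 2.14 in male control replicate 3 and 8.91 in female control replicate 2. Psmb9, a subunit of the immunoproteasome, had 0 and 1.42 normalized counts in male cKO libraries against 2.01, 4.59 and 23.6 in male controls, and 0.696, 7.72 and 2.98 in female cKO libraries against 15.4, 6.12 and 0 in female controls. These 2 genes did not reach 10 normalized counts in 3 of the 11 libraries and were not tested. The other 37 members were among the 13108 genes tested.

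**Figure D1:**
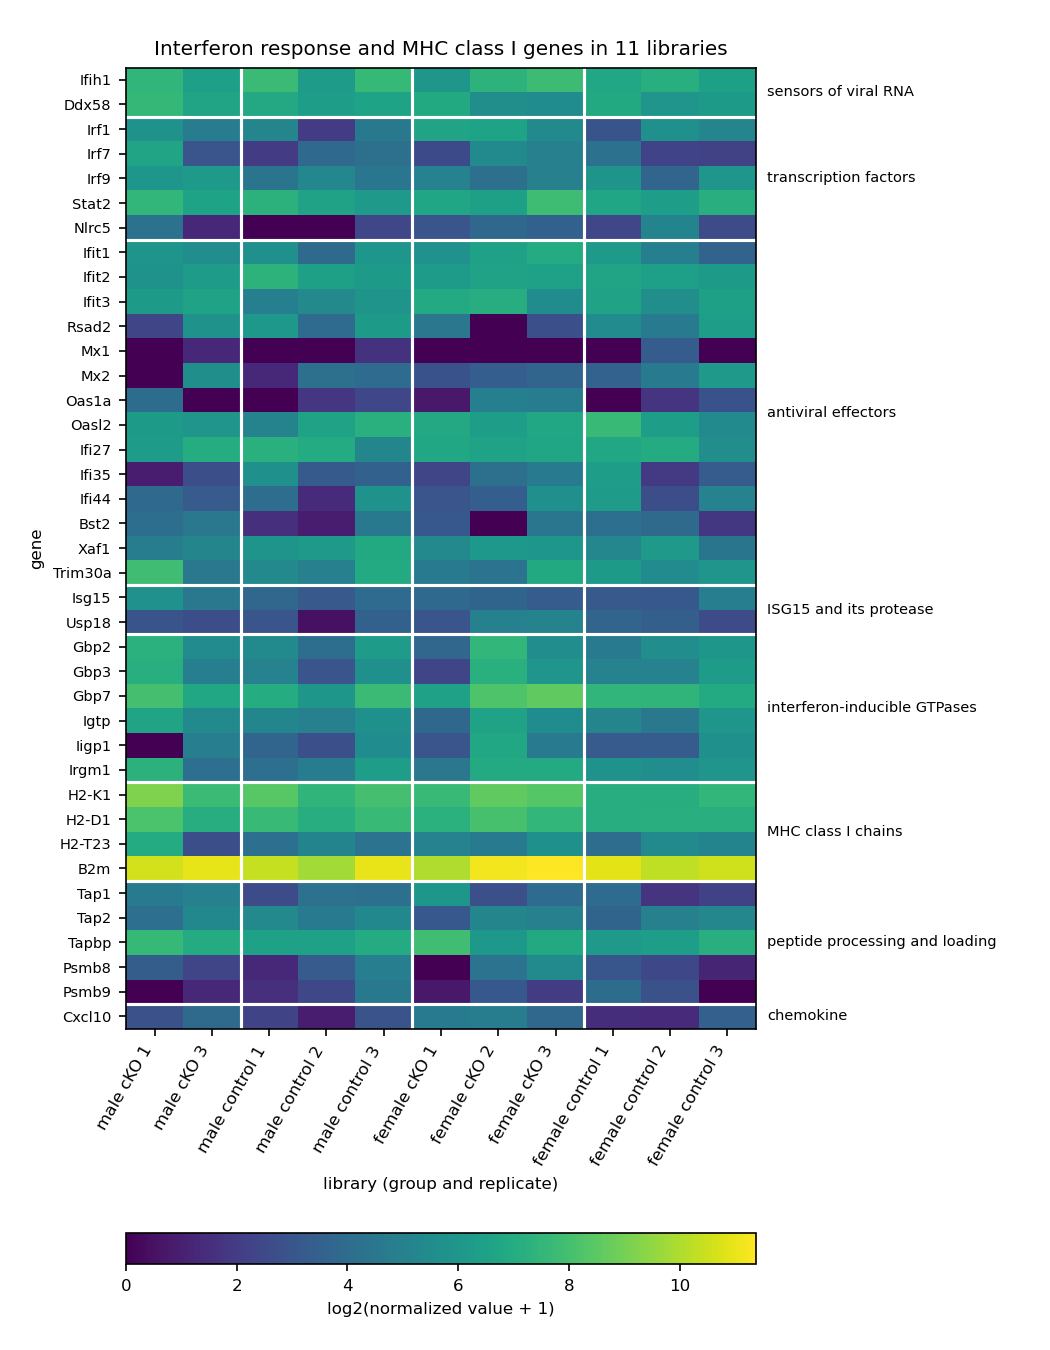
Level of each of the 39 members as log2(normalized count + 1), by colour, with genes in rows grouped by role and the 11 libraries in columns grouped by sex and genotype. B2m is the brightest row in all libraries, Mx1 and Psmb9 are among the darkest, and columns of the same group differ from each other in most rows.

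Ligand genes had few or no reads. Of 10 interferon genes in the table, 9 were listed at 0 in all libraries (Ifnb1, Ifna1, Ifna2, Ifna4, Ifna5, Ifne, Ifng, Ifnl2 and Ifnl3). Only Ifnk among them had reads, up to 4.47 normalized counts in female cKO replicate 3. Receptor genes were present. Ifnar1, a chain of the type I receptor that is given here after its values were seen, had 539 and 332 normalized counts in male cKO libraries against 280, 543 and 356 in male controls, and 297, 345 and 335 in female cKO libraries against 422, 309 and 430 in female controls. Ifngr1, a chain of the type II receptor, had 324 and 298 in male cKO libraries against 169, 139 and 152 in male controls, and 212, 149 and 209 in female cKO libraries against 169, 122 and 149 in female controls. The receptor of type III interferon, Ifnlr1, had reads only in male control replicate 1, at 0.502 normalized counts. In bulk libraries of this kind, fewer cells of a type and less RNA per cell cannot be told apart.

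No member passed the test in any comparison of cKO with control. With limma and Benjamini-Hochberg adjustment over 13108 genes, 0 of 37 members had an adjusted p below 0.05 for cKO minus control averaged over the sexes, and over all tested genes 0.0% did. At an unadjusted p below 0.05 there were 3 members higher (8.11% of 37) and 1 lower (2.70%), against 3.56% higher and 5.01% lower of all tested genes (8.57% in all). edgeR on the recovered reads called 0 members and 0.0% of all genes, and DESeq2 called 0 members and 0.222% of 13068 genes (10 higher and 19 lower). The lowest adjusted p that any member reached under any of 23 alternatives was 0.228, for H2-K1. In direction, 26 of 37 members (70.3%) had a positive log2 fold change, with a median of 0.40, against 48.3% of all tested genes, whose median was -0.02. This median was 0.22 without male cKO replicate 1 and 0.63 without male cKO replicate 3, and between 25 and 29 members were positive when any 1 library was left out. With the filter on low values in 6 libraries, 31 members were tested and 21 of them were positive. The members were chosen with earlier results of these data known. Their shares, here and below, are therefore not an independent comparison with all genes.

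By role, all 5 transcription factor genes, all 4 MHC class I chain genes and both genes of the ISG15 system had positive log2 fold changes in that average, as did 5 of 6 GTPase genes and 3 of 4 tested peptide processing genes. Of the 13 tested antiviral effectors 5 were positive, and of the 2 RNA sensors 1 was. Role medians were 1.01 for the transcription factors, 0.75 for Isg15 and Usp18, 0.49 for the GTPases, 0.45 for peptide processing, 0.32 for the MHC class I chains, 0.04 for the sensors and -0.05 for the effectors. By sex, transcription factors had medians of 1.39 in males (5 of 5 positive) and 0.28 in females (4 of 5). The ISG15 system had 1.01 in males (2 of 2 positive) and 0.50 in females (1 of 2). GTPases had 0.69 in males and 0.27 in females. Peptide processing genes had 0.18 in males (2 of 4 positive) and 0.72 in females (3 of 4). MHC class I chains had 0.37 in males and 0.38 in females. The male cKO libraries disagreed on these chains. Their mean log2(value + 1) was 8.75 in replicate 1 and 7.14 in replicate 3, against 7.38 to 7.76 in male controls. Effectors had -0.20 in males (6 of 13 positive) and 0.02 in females (7 of 13, or 6 with a median of -0.01 under TMM scaling). In the average over the sexes the counts in each direction were unchanged with size factors over all libraries and with TMM scaling. None of these medians was tested against another, nor between the sexes.

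**Figure D2:**
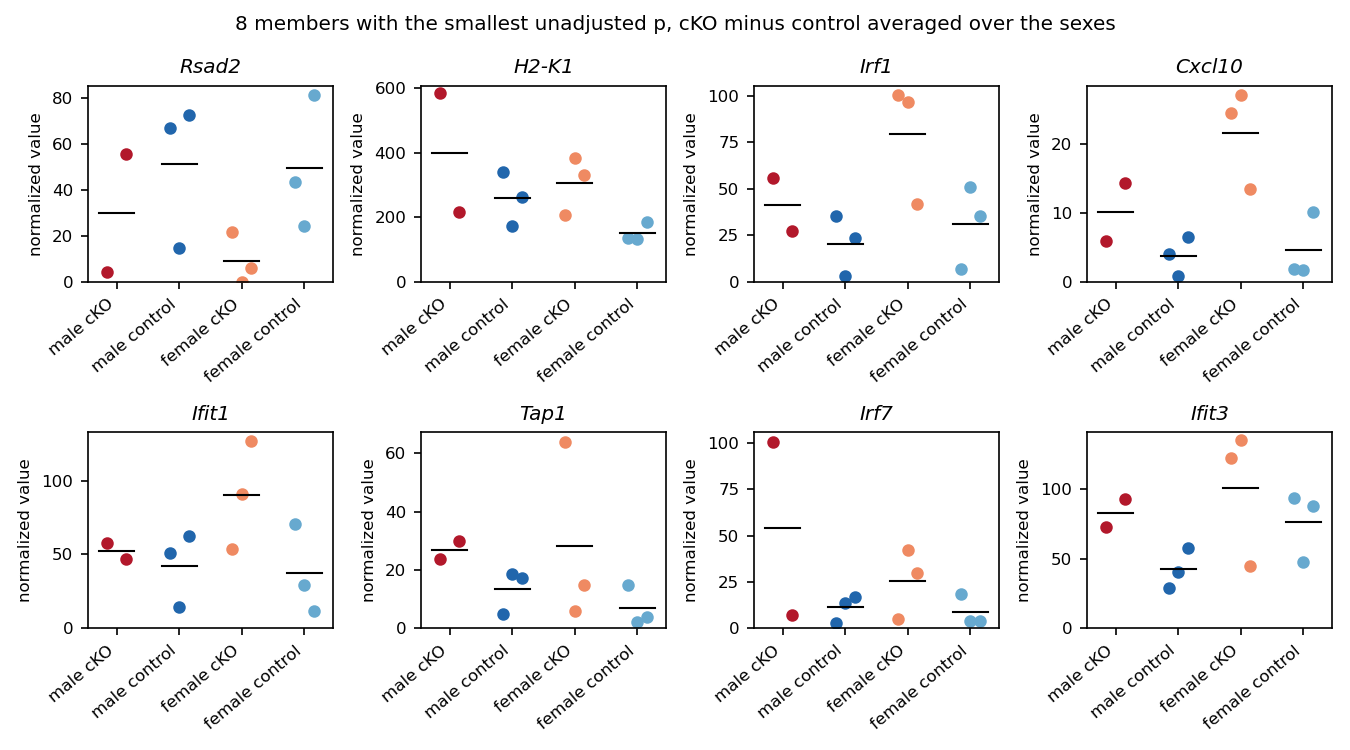
Normalized counts, on the vertical axis, of the 8 members with the smallest unadjusted p for cKO minus control averaged over the sexes. Each point is 1 library, bars are group means, and the groups are 2 male cKO, 3 male control, 3 female cKO and 3 female control libraries. In Rsad2 the 3 female cKO points lie at 0 to 21.6, below the female controls at 24.5 to 81.3, while in H2-K1 they lie at 206 to 384, above the female controls at 134 to 184.

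The transcription factors were led by Irf1, an early interferon-gamma target. Irf1 had 55.5 and 27.1 normalized counts in male cKO libraries against 35.2, 2.92 and 23.6 in male controls, and 100.2, 96.5 and 41.7 in female cKO libraries against 6.76, 50.7 and 35.6 in female controls. The groups overlapped in both sexes, with the lowest control library in each sex far below the rest. Its log2 fold change averaged over the sexes was 1.5 (SE 0.67, adjusted p = 0.546). Irf7, the amplifier of type I interferon production, had 100.7 and 7.12 in male cKO libraries against 3.01, 13.8 and 17.1 in male controls, and 4.87, 42.5 and 29.8 in female cKO libraries against 18.4, 3.90 and 3.81 in female controls. A single library, male cKO replicate 1, stood above the others. The log2 fold change of Irf7 was 1.43 (SE 0.87, adjusted p = 0.667). Nlrc5, the transactivator of MHC class I genes, had 17.9 and 1.42 in male cKO libraries against 0, 0 and 4.29 in male controls, and 6.96, 13.5 and 10.4 in female cKO libraries against 4.30, 34.5 and 5.08 in female controls. Both groups overlapped in both sexes, and the log2 fold change was 1.01 (SE 0.98, adjusted p = 0.814).

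Irf9 and Stat2 encode partners in the complex that binds ISREs. Irf9 had 62.3 and 69.8 normalized counts in male cKO libraries, all above the male controls at 19.6, 38.0 and 21.4. Its female cKO libraries had 32.0, 17.4 and 29.8, inside the range of female controls at 58.4, 12.2 and 60.9. Irf9 had a male log2 fold change of 1.35 (SE 0.83, adjusted p = 0.643). Its female one was -0.46 (SE 0.74, adjusted p = 0.999). Stat2, the highest of the 5 per kilobase, had 184 and 95.5 in male cKO libraries against 160, 92.2 and 68.6 in male controls, and 101, 88.8 and 231 in female cKO libraries against 103, 80.2 and 140 in female controls. Male cKO replicate 1 and female cKO replicate 3 lay above all controls of their sex and the other cKO libraries did not, and the average log2 fold change was 0.34 (SE 0.37, adjusted p = 0.836).

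Among antiviral effectors the largest difference was a lower level in cKO libraries. Rsad2 encodes viperin, an enzyme that makes a chain-terminating nucleotide. It had 4.27 and 55.6 normalized counts in male cKO libraries against 66.8, 14.6 and 72.9 in male controls, and 21.6, 0 and 5.96 in female cKO libraries against 43.7, 24.5 and 81.3 in female controls. The 0 in female cKO replicate 2 allows up to 5.79 normalized counts, the value of 3 reads in that library. Female groups did not overlap, while male cKO replicate 3 lay among the male controls. The log2 fold change of Rsad2 was -2.19 on average (SE 0.84, adjusted p = 0.486). It was -1.31 in males (SE 1.26, adjusted p = 0.788). The female value was -3.07 (SE 1.12, adjusted p = 0.999). Left-out libraries, scalings and other tools gave averages from -3.14 to -1.33, none of which passed.

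The IFIT genes encode proteins that bind viral RNA. Ifit1 had 58.0 and 47.0 normalized counts in male cKO libraries against 50.8, 14.2 and 62.2 in male controls, and 53.6, 90.7 and 127 in female cKO libraries against 70.7, 29.5 and 11.4 in female controls. Groups overlapped in both sexes, and the average log2 fold change was 1.03 (SE 0.54, adjusted p = 0.605). Ifit3 had 72.5 and 92.6 in male cKO libraries, above male controls at 29.1, 40.5 and 57.9. Its female cKO libraries had 122, 135 and 44.7, of which the last lay below the female controls at 93.5, 47.9 and 87.6. Ifit3 had a male log2 fold change of 0.99 (SE 0.63, adjusted p = 0.662). Its female one was 0.30 (SE 0.57, adjusted p = 0.999). Of the 50-base stretches of Ifit3 transcripts, 51.2% were also in Ifit3b, so how reads were split between these genes is uncertain. Ifit2 was the member with the least spread within groups, with 55.5 to 163 normalized counts over the 11 libraries and an average log2 fold change of -0.30 (SE 0.36).

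Xaf1 and Ifi35 were lower in both male cKO libraries than in any male control. Xaf1, an interferon-induced gene linked to apoptosis, had 27.3 and 35.6 normalized counts in male cKO libraries, below male controls at 58.3, 70.9 and 118, and 39.7, 65.6 and 62.6 in female cKO libraries against 37.5, 69.6 and 20.3 in female controls. Its male log2 fold change was -1.31 (SE 0.69, adjusted p = 0.562), and the female one was 0.52 (SE 0.62, adjusted p = 0.999). Ifi35, whose protein binds the NMI protein, had 0.853 and 5.70 in male cKO libraries, below male controls at 51.3, 8.34 and 10.7, and 4.18, 17.4 and 23.9 in female cKO libraries against 78.7, 2.78 and 8.89 in female controls. In reads, the male values of Ifi35 were 1 and 4 in cKO libraries against 102, 20 and 5 in controls. Its male log2 fold change was -2.34 (SE 1.36, adjusted p = 0.621), and the female groups overlapped. Bst2, tetherin, which holds budding virions at the cell surface, had 16.2 and 22.8 in male cKO libraries against 2.01, 0.834 and 23.6 in male controls, and 7.66, 0 and 20.9 in female cKO libraries against 16.6, 14.5 and 2.54 in female controls. Both sexes overlapped, with log2 fold changes of 1.98 in males (SE 1.5) and -0.78 in females (SE 1.34).

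The remaining effectors overlapped between cKO and control in both sexes. Ifi27 had 77.7 and 133 normalized counts in male cKO libraries against 150, 128 and 36.4 in male controls, and 113, 92.6 and 104 in female cKO libraries against 111, 129 and 48.2 in female controls. Its average log2 fold change was 0.20 (SE 0.42). Oas1a and Oasl2 belong to the oligoadenylate synthetase family, which responds to double-stranded RNA, and had ranges of 0 to 28.9 and 33.2 to 200.4 normalized counts. The average log2 fold change was 1.29 for Oas1a (SE 1.16), 57.6% of whose 50-base stretches are shared with Oas1g, and -0.03 for Oasl2 (SE 0.45). Ifi44 ranged from 1.67 to 74.4 normalized counts, Mx2 from 0 to 68.6 and the TRIM family gene Trim30a from 22.8 to 233. Their average log2 fold changes were -0.41 (SE 0.88), -0.91 (SE 0.97) and -0.05 (SE 0.62).

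The cytosolic RNA sensors had averages near 0. Ifih1, which encodes MDA5, had 177 and 84.1 normalized counts in male cKO libraries against 218, 75.1 and 199 in male controls, and 63.3, 164 and 224 in female cKO libraries against 109, 144 and 86.3 in female controls. Its average log2 fold change was -0.01 (SE 0.40). Ddx58, which encodes RIG-I, ranged from 44.7 to 189 over the 11 libraries, with an average of 0.09 (SE 0.39).

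Isg15 is a ubiquitin-like protein that is attached to other proteins, and Usp18 is the protease that removes it and dampens the type I receptor. Isg15 had 52.9 and 22.8 normalized counts in male cKO libraries, above male controls at 12.6, 7.92 and 15. In females the cKO libraries had 13.9, 11.6 and 8.95, inside the range of the female controls at 7.99, 7.79 and 27.9. In males the log2 fold change of Isg15 was 1.52 (SE 1.04, adjusted p = 0.678). In females it was -0.10 (SE 0.93, adjusted p = 0.999). Usp18 had 6.83 and 5.70 in male cKO libraries against 7.03, 0.417 and 10.7 in male controls, and 6.96, 30.9 and 32.8 in female cKO libraries against 12.3, 10.0 and 5.08 in female controls. Groups overlapped in both sexes, and the average log2 fold change was 0.80 (SE 0.85).

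The heavy chain gene H2-K1 (chromosome 17, 33996017 to 34000347, minus strand) was 1 of the 3 members higher at an unadjusted p below 0.05. It had 585 and 215 normalized counts in male cKO libraries against 341, 174 and 261 in male controls, and 206, 384 and 332 in female cKO libraries against 135, 134 and 184 in female controls. Female groups did not overlap, and male groups did. The log2 fold change was 0.75 on average (SE 0.30, adjusted p = 0.512). It was 0.51 in males (SE 0.45, adjusted p = 0.768). The female value was 0.99 (SE 0.41, adjusted p = 0.999). Over the alternatives the average ran from 0.39 to 1.11. H2-D1 had 285 and 134 in male cKO libraries against 211, 136 and 201 in male controls, and 154, 268 and 182 in female cKO libraries against 134, 143 and 142 in female controls. Its female groups did not overlap either, with a female log2 fold change of 0.48 (SE 0.40, adjusted p = 0.999). Shared 50-base stretches made up 9.63% of H2-K1 and 12.8% of H2-D1 transcripts.

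B2m had 1567 and 1998 normalized counts in male cKO libraries against 1314, 893 and 2064 in male controls, and 1057, 2310 and 2667 in female cKO libraries against 1951, 1270 and 1492 in female controls. The groups of this light chain gene overlapped in both sexes, and its average log2 fold change was 0.33 (SE 0.26, adjusted p = 0.756). H2-T23, which encodes the nonclassical chain Qa-1, had 128 and 5.70 in male cKO libraries against 16.6, 34.6 and 19.3 in male controls. The male cKO libraries were thus the highest and the lowest of the 11 for this gene. Female cKO libraries had 32.0, 25.1 and 50.7 against 16.0, 41.2 and 34.3 in female controls, and the average log2 fold change was 0.30 (SE 0.68).

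Peptides reach MHC class I through the transporter of TAP1 and TAP2 and the bridging protein tapasin. Tap1 had 23.9 and 29.9 normalized counts in male cKO libraries, above male controls at 5.02, 18.8 and 17.1, and 64.0, 5.79 and 14.9 in female cKO libraries against 14.8, 2.23 and 3.81 in female controls. The average log2 fold change was 1.36 (SE 0.80, adjusted p = 0.650). Tapbp, the tapasin gene, had 199 and 125 in male cKO libraries against 91.5, 89.2 and 129 in male controls, and 240.2, 65.6 and 118 in female cKO libraries against 70.7, 80.7 and 140 in female controls. One cKO library of each sex, replicate 1, exceeded all controls, and the average was 0.52 (SE 0.37, adjusted p = 0.736). Tap2 ranged from 7.66 to 40.2 with an average of -0.31 (SE 0.61), and the immunoproteasome gene Psmb8 from 0 to 43.2 with an average of 0.39 (SE 1.05).

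Cxcl10, a chemokine that attracts activated T cells, had the highest positive average among the members. It had 5.97 and 14.2 normalized counts in male cKO libraries against 4.02, 0.834 and 6.43 in male controls, and 24.4, 27.0 and 13.4 in female cKO libraries against 1.84, 1.67 and 10.2 in female controls. All 3 female cKO libraries exceeded all 3 female controls. The closest values, 13.4 in female cKO replicate 3 and 10.2 in female control replicate 3, are 9 and 8 reads. The log2 fold change was 1.82 on average (SE 0.86, adjusted p = 0.572). It was 1.33 in males (SE 1.28, adjusted p = 0.788). The female value was 2.31 (SE 1.15, adjusted p = 0.999).

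Interferon-inducible GTPases attack vacuoles that hold pathogens, and their genes differed widely between libraries of the same group. Gbp7, the highest of the 6 per kilobase, had 263 and 113 normalized counts in male cKO libraries against 130, 65.1 and 216 in male controls, and 91.2, 307 and 385 in female cKO libraries against 178, 173 and 122 in female controls. Gbp2 and Gbp3 had 12.5 and 4.18 in female cKO replicate 1 and 183 and 149 in female cKO replicate 2, the lowest and the highest of the 11 libraries for both genes. The mean log2(value + 1) over the 6 genes was 6.07 and 5.29 in male cKO libraries against 5.09, 4.29 and 6.22 in male controls, and 4.0, 7.22 and 6.20 in female cKO libraries against 5.24, 5.25 and 6.13 in female controls. Female cKO libraries thus held both the lowest and the highest mean. Igtp ranged from 13.2 to 98.2 normalized counts, Irgm1 from 17.1 to 156 and Iigp1 from 0 to 112. The average log2 fold changes were 0.50 for Gbp7 (SE 0.40), 0.67 for Gbp2 (SE 0.63), 0.58 for Gbp3 (SE 0.78), 0.40 for Igtp (SE 0.54), 0.49 for Irgm1 (SE 0.61) and -0.42 for Iigp1 (SE 0.95). Male cKO replicate 1 had 0 for Iigp1, which allows up to 2.56 normalized counts, while the other 5 genes were above their median over the 11 libraries there.

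**Figure D3:**
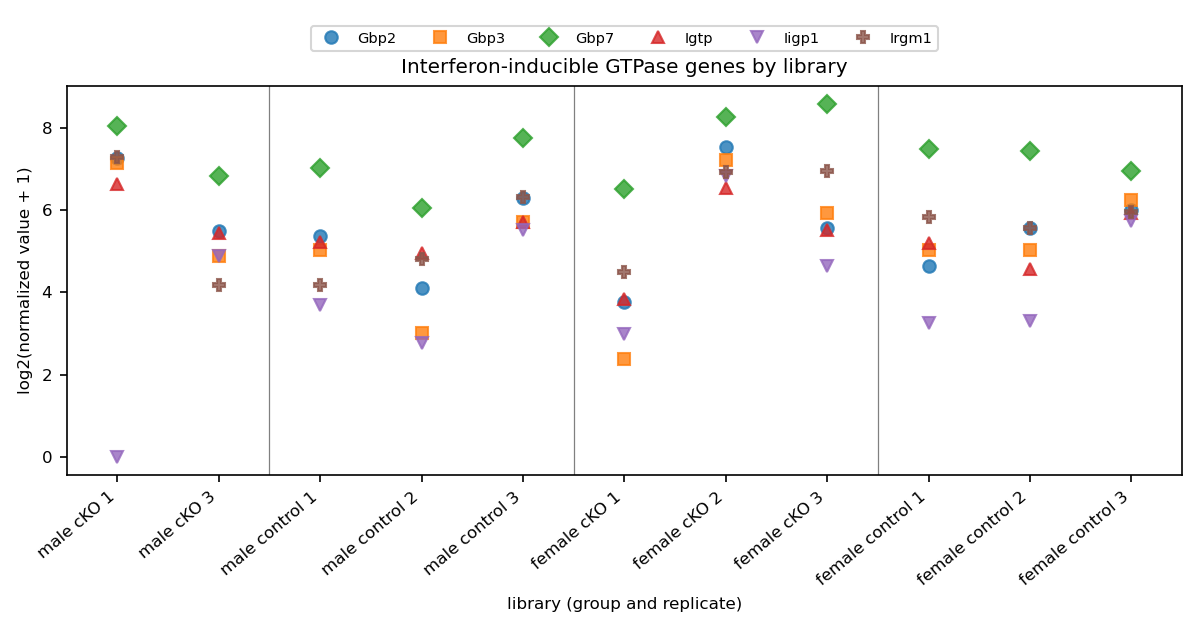
log2(normalized count + 1) of the 6 interferon-inducible GTPase genes, on the vertical axis, in the 11 libraries, with vertical lines between the 4 groups. The 6 genes are low together in female cKO replicate 1 and high together in female cKO replicate 2, and Iigp1 is at 0 in male cKO replicate 1.

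Libraries differed over all members as they did over the GTPases. The mean log2(value + 1) of the 37 tested members was 5.58 and 5.12 in male cKO libraries against 4.86, 4.45 and 5.60 in male controls, and 4.83, 5.59 and 5.82 in female cKO libraries against 5.21, 4.94 and 5.22 in female controls. Groups overlapped in both sexes. Of the 37 members, 23 and 14 were above their median over the 11 libraries in male cKO libraries against 11, 9 and 27 in male controls, and 10, 23 and 26 in female cKO libraries against 16, 8 and 18 in female controls. The SD within groups on the log2 scale had a median of 0.963 over the members and of 0.753 over all tested genes. It was lowest for Ifit2 at 0.378 and highest for Iigp1 at 1.97. In the repeated pair the members differed by a median of 0.195 on the log2 scale, against 0.496 to 1.41 for the 10 pairs of replicates of a group. Within the repeated pair Rsad2 differed most, by 2.85, from 3 reads in the library labelled male and 0 in the other.

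**Figure D4:**
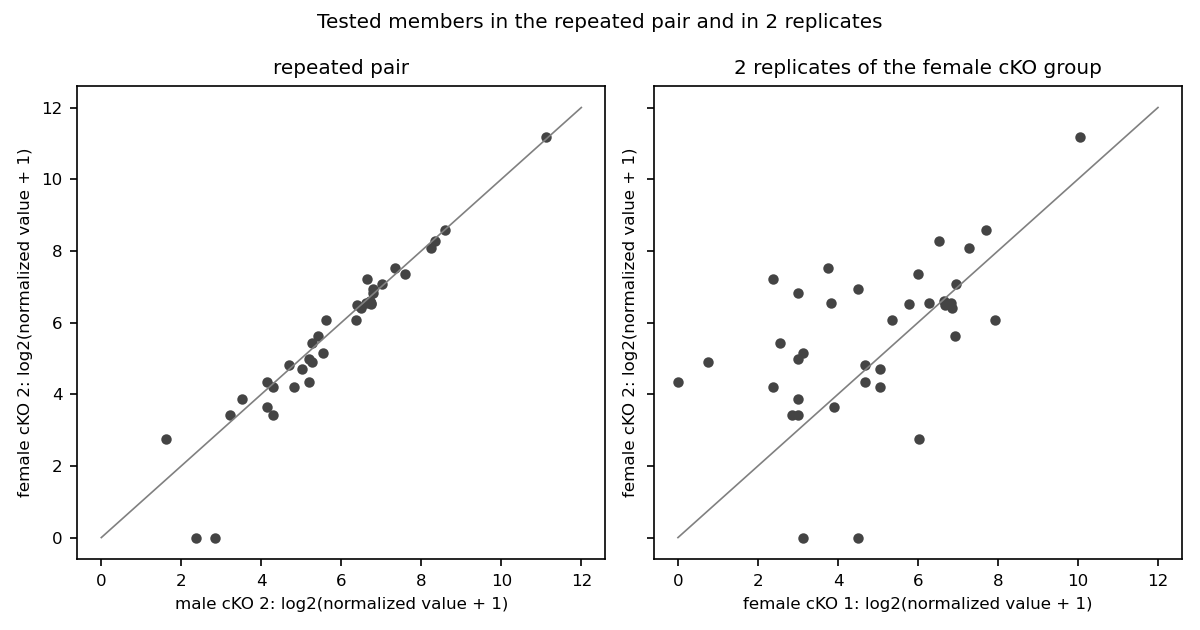
log2(normalized count + 1) of the 37 tested members, 1 point each, in the repeated pair of libraries (left) and in replicates 1 and 2 of female cKO (right), with the line of equality. Points of the repeated pair lie near the line apart from low genes, while those of the replicates scatter widely.

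In males alone, 26 of 37 members had a positive log2 fold change, with a median of 0.50, against 48.1% of all tested genes and a median of -0.04. The median was 0.18 without male cKO replicate 1 and 0.86 without male cKO replicate 3. No member passed with limma, edgeR or DESeq2, against 0.0% of all tested genes with limma, 0.0% with edgeR and 0.65% of 13068 genes with DESeq2 (35 higher and 50 lower), and 0 members had an unadjusted p below 0.05, against 9.7% of all tested genes (4.17% higher and 5.53% lower). Both cKO libraries lay above all male controls for 4 members (Irf9, Ifit3, Isg15 and Tap1), against 12.7% of all tested genes, and below them for Ifi35 and Xaf1 (5.41%), against 14.1%. As shares of 37, both counts are under those of all genes.

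In females alone, 26 of 37 members were positive, with a median of 0.27, against 49.5% of all tested genes and a median of -0.01. This median was 0.04 without female cKO replicate 3 and 0.66 without female cKO replicate 1. Again no member passed, against 0.0% of all tested genes. H2-K1 and Ifit1 were higher and Rsad2 lower at an unadjusted p below 0.05 (3 members, 8.11%), against 3.9% of all tested genes (1.8% higher and 2.1% lower). All 3 cKO libraries lay above all 3 controls for H2-K1, H2-D1 and Cxcl10 (8.11% of 37), against 4.39% of all tested genes, and below them for Rsad2 (2.70%), against 4.75%. No member separated in the same direction in both sexes, against 0.473% of all genes higher and 0.87% lower, and none separated in opposite directions, against 0.87%. Of 12 microglia and macrophage markers, 11 also had positive log2 fold changes in females, with a median of 0.60, and their part in the members' values was not tested.

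**Figure D5:**
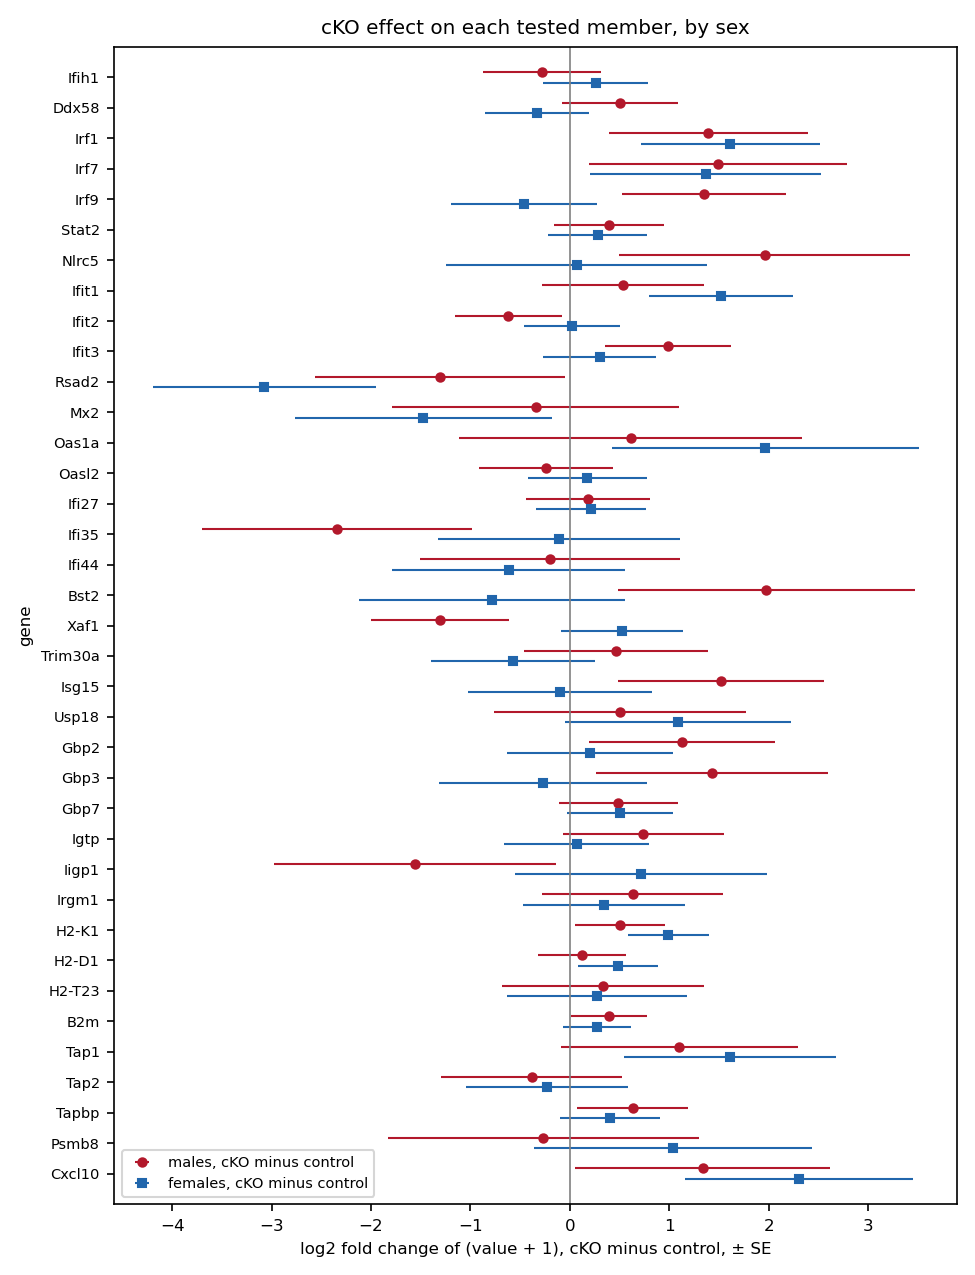
log2 fold change of (value + 1), cKO minus control, on the horizontal axis for each of the 37 tested members, with circles for males, squares for females and bars for 1 SE. Most points lie right of 0, and the bars of the sexes are wide; Xaf1, Irf9 and Bst2 have opposite signs in males and females.

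The difference of the cKO effects, female minus male, asks whether cKO and control libraries differed by different amounts in the sexes. By the library names, all male libraries were numbered before all female ones, so sex cannot be told apart from library number. No member passed, against 0.0% of all tested genes, and 0 members had an unadjusted p below 0.05, against 5.58% of all tested genes (3.02% higher and 2.56% lower). Of the 37 members 18 were positive, against 51.8% of all tested genes, with a median of -0.06, which was 0.36 without male cKO replicate 1 and -0.28 without male cKO replicate 3. The smallest p values belonged to Xaf1, with a difference of 1.83 (SE 0.93, adjusted p = 0.895), Irf9, with -1.81 (SE 1.11, adjusted p = 0.902), and Bst2, with -2.76 (SE 2.01, adjusted p = 0.926). The opposite signs seen for these genes in the sexes were therefore not shown to differ.

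Among controls, female minus male, no member passed, while 0.0381% of all tested genes did (0.00763% higher and 0.0305% lower in females). Here too sex cannot be told apart from library number. On the log2 scale, size factors over all libraries minus the deposited factors were 0.0161 to 0.0281 in males and -0.0310 to -0.0144 in females. With an unadjusted p below 0.05 there were 0 members, against 1.83% of all tested genes (0.687% higher and 1.14% lower). Of the 37 members 22 were positive, against 44.4% of all tested genes, with a median of 0.10, which was -0.24 without male control replicate 2 and 0.37 without male control replicate 3. Nlrc5 had the smallest p, with 4.30, 34.5 and 5.08 normalized counts in female controls against 0, 0 and 4.29 in male controls (log2 difference 2.59, SE 1.31, adjusted p = 1.00). It was the only member whose female and male control libraries did not overlap (2.70% of 37), against 3.05% of all tested genes higher in females and 4.94% lower. The gap lay between 4.30 in female control replicate 1 and 4.29 in male control replicate 3. These values are 7 and 2 reads, and 1 read is worth 0.615 and 2.14 there. H2-K1 had 135, 134 and 184 in female controls against 341, 174 and 261 in male controls (log2 difference -0.74, SE 0.41), and Xaf1 had 37.5, 69.6 and 20.3 against 58.3, 70.9 and 118 (-1.04, SE 0.62).

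With limma, 0 of 92 tested genes of the lists below passed in the average over the sexes, and 0 passed with edgeR or DESeq2. Of 45 tested other interferon-stimulated genes, 34 were positive with a median of 0.35, against 48.3% positive of all tested genes. At an unadjusted p below 0.05, 6 were higher and 0 lower, against 3.56% and 5.01% of all tested genes. These lists, too, were chosen with earlier results of these data known. Trim12a had 189 and 86.9 normalized counts in male cKO libraries against 10.6, 1.67 and 62.2 in male controls, but 19.5, 83.0 and 26.8 in female cKO libraries against 35.7, 19.5 and 41.9 in female controls (average 1.78, SE 0.70). Cmpk2, the neighbour of Rsad2 that encodes a nucleotide kinase, differed from it in direction, with an average of 1.16 (SE 0.50). The GTPase gene Irgm2 had an average of 1.15 (SE 0.50).

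Of 8 tested receptor and kinase genes 3 were positive in the average over the sexes, with 6 positive in males and 4 in females. The kinase gene Jak2 had the smallest p of these lists, with 195 and 219 normalized counts in male cKO libraries against 494, 319 and 319 in male controls, and 284, 255 and 194 in female cKO libraries against 379, 531 and 339 in female controls. Its groups did not overlap in either sex, as for 0.87% of all tested genes in this direction, and the average log2 fold change was -0.80 (SE 0.25), with an unadjusted p of 0.00412 that did not pass the adjustment. Ifngr1 had an average log2 fold change of 0.69 (SE 0.27) and the receptor chain gene Il10rb one of 1.10 (SE 0.53). Of 9 tested STAT, IRF and inhibitor genes 5 were positive, including the feedback inhibitor Socs3 at 0.85 (SE 0.35) and Irf2 at 0.71 (SE 0.31), while Stat3 had -0.41 (SE 0.30). Of 14 tested adaptors of nucleic acid sensing 12 were positive in the average over the sexes, against 48.3% of all tested genes. By sex, 8 of the 14 were positive in males, with a median of 0.35, against 48.1% of all tested genes. In females 7 were positive, with a median of -0.01, against 49.5%. The adaptors included Tmem173, which encodes STING, with an average of 0.97 (SE 0.66). Mavs, the adaptor of both RNA sensors, had 0.64 (SE 0.37). The kinase gene Ikbke was at 0 in both male cKO libraries against 19.1, 2.92 and 10.7 in male controls, and at 10.4, 0 and 0 in female cKO libraries against 19.7, 7.79 and 0 in female controls (average -2.31, SE 1.15).

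Further MHC class I and peptide loading genes had 6 of 11 tested genes positive, with the chaperone gene Calr at 0.41 (SE 0.24), H2-T24 at -0.85 (SE 0.43) and Tapbpl, which encodes a tapasin-like editor, at -1.33 (SE 0.76). H2-Q6, H2-Q7 and H2-T22 were listed at 0 in all libraries. Of 5 tested MHC class II genes, which mark antigen-presenting cells, 3 were positive in the average over the sexes. By sex, 2 of 5 were positive in males, with a median of -0.62, and 4 of 5 in females, with a median of 0.46. These medians were not tested against each other. H2-Eb1 had an average of 1.37 (SE 0.58), H2-Ab1 of -0.32 (SE 0.57) and Cd74 of -0.34 (SE 0.48).

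Marker levels of several cell types also differed between cKO and control libraries, and their part in the results above was not tested. All 12 astrocyte markers were positive in the average over the sexes, with a median log2 fold change of 0.91. In males all 12 were positive with a median of 1.75, and in females 9 of 12 with a median of 0.08. Their summed level was 77581 to 91559 in male cKO libraries against 15360 to 41984 in male controls, and 34903 to 77853 in female cKO libraries against 15503 to 72698 in female controls. Of 10 oligodendrocyte markers 8 were negative, with a median of -0.72 (-0.99 in males and -0.42 in females), and all 6 fibroblast markers were positive, with a median of 0.73 (0.83 in males and 0.58 in females). Of 12 microglia and macrophage markers 5 were positive in the average, with a median of -0.25, but 3 were positive in males, with a median of -0.91, and 11 in females, with a median of 0.60. Their sums were 1348 to 1350 in male cKO libraries against 1139 to 1764 in male controls, and 1227 to 3466 in female cKO libraries against 1342 to 1687 in female controls. The highest microglial sum was in female cKO replicate 3, which also had the highest mean over the members. Male control replicate 2 had the lowest of both, 1139 and 4.45. Male cKO replicate 1, with a microglial sum of 1350, had a mean of 5.58. Endothelial and mural markers, with 9 of 12 positive and a median of 0.35 (0.50 in males and 0.05 in females), summed to 4028 to 7373 in male cKO libraries against 2820 to 5992 in male controls, and 3493 to 6224 in female cKO libraries against 2751 to 6718 in female controls. All 8 tested neutrophil and red cell markers were negative, with a median of -1.92. Their sum reached 5930 in male control replicate 3, the male control with the highest mean over the members. Female control replicate 2 had the highest sum of the female controls, 1455, and their lowest mean over the members, 4.94. The 10 T, B and NK cell markers summed to at most 24.5 in any of the 11 libraries, and Cd3g, Gzma and Klrb1c were at 0 in all of them.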

How the data were processed

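The deposited table holds a normalized signal per gene, which behaves as gene counts that the authors divided by 1 factor per library. The submitters' processing notes name build mm10, with STAR 2.5.0a, DESeq2 1.20.0, FastQC 0.10.1 and MultiQC 0.9. The annotation, the counter and the use of strand are not given in the sources used here, so overlapping and near-identical genes carry uncertain counts. Whole reads were recovered: within 0.01 reads, 100% of values above 0 were multiples of 1 read. Per the labels' protocols, 10 ng of RNA per sample were amplified with a Trio RNA-seq kit.

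Genes that reached 10 in 3 or more of 11 libraries were fitted as log2(value + 1) with limma 3.58.1 in R 4.3.3, with trend and robust variance and 1 mean per group. P-values were adjusted over all 13108 genes by the Benjamini-Hochberg method at 0.05. Log2 fold changes are on this scale, which understates changes of low genes. Alternatives were edgeR 4.0.16, DESeq2 1.42.0, other scalings, filters and pseudocounts, a replicate block and left-out libraries, and a limma fit was tested on simulated data. A 0 allows up to the value of 3 reads, for counting error only. Exon lengths and shared 50-base stretches came from GENCODE M21.

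Members shown by library were those with the smallest unadjusted p (8 for the average, 5 in males, 5 in females, 3 for each other contrast) and the highest of each role; 3 genes per pathway list were named likewise. The members and lists were chosen with earlier results of these data known. Ifi207 and Rnf213 were not analysed here.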

Additional observations from a re-analysis of the deposited data

How the results depend on the processing

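No member passed in any of the 5 contrasts under any of 23 alternatives. The lowest adjusted p was 0.228 for the average over the sexes, 0.343 in males, 0.771 in females, 0.401 for the difference of the sexes and 0.999 among controls. In the average over the sexes 24 of the 37 members kept the sign of their log2 fold change under all alternatives, and 13 changed it at least once; those that kept it include Rsad2, H2-K1, Irf1, Cxcl10, Ifit1, Tap1, Irf7 and Ifit3. It was kept by 16 in males, 17 in females, 13 for the difference and 16 among controls. The median over the members stayed positive in the average and in each sex, and took both signs for the difference (-0.32 to 0.36) and among controls (-0.24 to 0.37).

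Counts over all genes moved more. DESeq2 called 29 genes for the average over the sexes (10 higher, 19 lower), 85 in males (35 higher, 50 lower), 2 in females and 11 for the difference, where limma and edgeR called 0. Without both cKO replicate 3 libraries, the cKO libraries that had Nkx6-1 reads, the counts were 2 for the average and 17 in males. When 1 library was left out, they ran from 0 to 2 for the average, 0 to 22 in males (22 without male cKO replicate 3, 11 without female control replicate 2, 1 without male cKO replicate 1), 0 to 1 in females and 0 to 1 for the difference. Without male cKO replicate 1 or 3, or without both cKO replicate 3 libraries, the male cKO group holds 1 library, which is assumed to vary like the other groups. Female minus male among controls, with 5 genes called, gave 0 with all 12 libraries, 0 with female cKO replicate 2 left out in place of its repeat, 1 with the filter in 6 libraries, and 2 to 6 when 1 library was left out. The cause was not tested.

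The replicate block called 0 members in each contrast, with 0 genes called in the 4 cKO contrasts and 5 among controls. Same-numbered libraries did not stand out: deviations of 15 same-numbered pairs correlated at -0.110 to 0.0597, and those of 30 other pairs at -0.132 to 0.145. The deviations of the 2 male cKO libraries are mirror images, so their correlations are forced opposites. This check therefore cannot exclude a weak pairing. Depth limits the low members: a single read is worth 0.417 to 2.14 normalized counts, so members near 10 rest on few reads.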
